A study of Mus musculus with 8 samples.

Results

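Circadian clock genes were followed in 8 bulk RNA-seq libraries of mouse airway cells. The 10 genes described (Arntl, Npas2, Clock, Per2, Per3, Nr1d1, Dbp, Tef, Hlf and Nfil3) were taken by symbol from the 55401 gene rows of the deposited count table, and all 10 passed the filter on low counts. The study asks how airway cells change when Cdh1, the gene of the adhesion protein E-cadherin, is inactivated in club cells, the secretory cells of small airways. The 4 control libraries carry the genotype Scgb1a1cre; Cdh1F/+ and the 4 libraries labelled mutant carry Scgb1a1cre; Cdh1F/F, so every library comes from cells with the Cre recombinase and at least 1 floxed allele. All libraries were made 10 days after tamoxifen. Scgb1a1, which codes for the chief secreted protein of club cells, drives the Cre, while each library holds RNA of mixed cells. Per the protocol, immune cells and endothelium were depleted, EPCAM-bearing cells were kept, and GFP+ were parted from GFP- cells. The labels do not give the fraction a library holds or the hour of the day at which tissue was taken.

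In most mammalian cells the clock is a feedback loop. BMAL1 (the product of Arntl) pairs with CLOCK or its relative NPAS2 and switches on the Per and Cry genes through a DNA element called the E-box, and the PER and CRY proteins then repress that pair. In a second loop REV-ERBα, the product of Nr1d1, represses Arntl, Npas2 and Nfil3 through ROR elements. The PAR bZIP factors DBP, TEF and HLF carry the rhythm to output genes through D-box elements, where NFIL3 (also called E4BP4) competes with them as a repressor. Transcripts of Arntl and Npas2 therefore peak at about the opposite time of day to those of Nr1d1 and Dbp. Lung, and club cells within it, are known to keep such a rhythm.

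Promoter sequences are shown for the members whose levels are discussed most below and whose window held one of 3 clock elements. RefSeq windows of 250 bases before to 50 bases after a transcription start (build GRCm38.p6) matched 9 of the 10 members. They were searched on both strands for the E-box (CACGTG), the D-box (TTATGTAA or TTACGTAA) and the ROR element (TAGGTCA or TGGGTCA preceded by AAN or TAN). No match overlapped another. Among all 32851 windows of that length in the table, 7.15% held the E-box, 1.06% the D-box and 0.688% the ROR element. The 250 bases before the start are printed 5′ to 3′ on the gene's strand, with the matched element in capitals. For Arntl only 30 bases around a match just after the start are given.
Nfil3, minus strand, chr13:52981040-52981289, ROR element: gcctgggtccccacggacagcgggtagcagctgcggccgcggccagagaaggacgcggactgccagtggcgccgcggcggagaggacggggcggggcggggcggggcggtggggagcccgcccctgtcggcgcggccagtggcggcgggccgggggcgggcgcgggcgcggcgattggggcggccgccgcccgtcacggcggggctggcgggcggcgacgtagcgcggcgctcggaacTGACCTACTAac
Tef, plus strand, upstream start, chr15:81802423-81802672, E-box: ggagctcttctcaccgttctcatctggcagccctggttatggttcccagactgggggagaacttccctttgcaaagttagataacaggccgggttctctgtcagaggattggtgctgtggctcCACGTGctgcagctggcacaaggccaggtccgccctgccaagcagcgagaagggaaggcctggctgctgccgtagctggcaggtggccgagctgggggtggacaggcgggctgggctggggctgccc
Tef, plus strand, downstream start, chr15:81811164-81811413, E-box: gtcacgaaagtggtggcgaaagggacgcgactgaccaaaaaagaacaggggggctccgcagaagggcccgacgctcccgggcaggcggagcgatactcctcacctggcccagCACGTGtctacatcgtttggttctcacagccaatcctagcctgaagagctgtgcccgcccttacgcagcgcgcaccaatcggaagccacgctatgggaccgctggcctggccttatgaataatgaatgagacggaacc
Per3, minus strand, chr4:151044666-151044915, a pair of D-boxes: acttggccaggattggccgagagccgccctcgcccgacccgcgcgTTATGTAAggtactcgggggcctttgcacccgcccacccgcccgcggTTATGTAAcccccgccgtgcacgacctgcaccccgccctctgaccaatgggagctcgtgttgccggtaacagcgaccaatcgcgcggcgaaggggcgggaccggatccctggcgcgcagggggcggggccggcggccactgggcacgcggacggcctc
Arntl, plus strand, chr7:113207528-113207557, ROR element: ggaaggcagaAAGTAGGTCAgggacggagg
The match in Nfil3 lies at chr13:52981042-52981051, just before the start, and appears there as the reverse complement. Both Tef starts carry an E-box, and Per3 carries the D-box at chr4:151044863-151044870 and chr4:151044816-151044823. Windows of Npas2, Clock, Dbp, Hlf and Nr1d1 held none of these letters, which says nothing of elements elsewhere in those genes. A match is a string of letters and not a measured binding site.

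Of the 10 clock genes, Npas2 and Nfil3 were higher and Tef was lower in mutant-labelled libraries (adjusted p below 0.05, edgeR quasi-likelihood, Benjamini-Hochberg over all 16964 genes tested). That is 3 of 10 called. Across all genes tested, 7.81% were called, 5.45% higher and 2.36% lower. The other 7 genes were not called. Levels are given as CPM, the count of a gene scaled to a common library total, and sets of 4 values follow the order of library numbers 1 to 4. The median log2 fold change of the 10 was -0.18, with 3 above 0 and 7 below, against -0.01 over all genes tested. The same 3 genes were the ones whose groups did not overlap, where 16.8% of all genes did not overlap, 9.75% with the mutant-labelled side higher and 7.07% with it lower. The 10 genes were chosen with earlier results of these data known, so these counts describe them and do not set them apart from other genes.

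**Figure D1:**
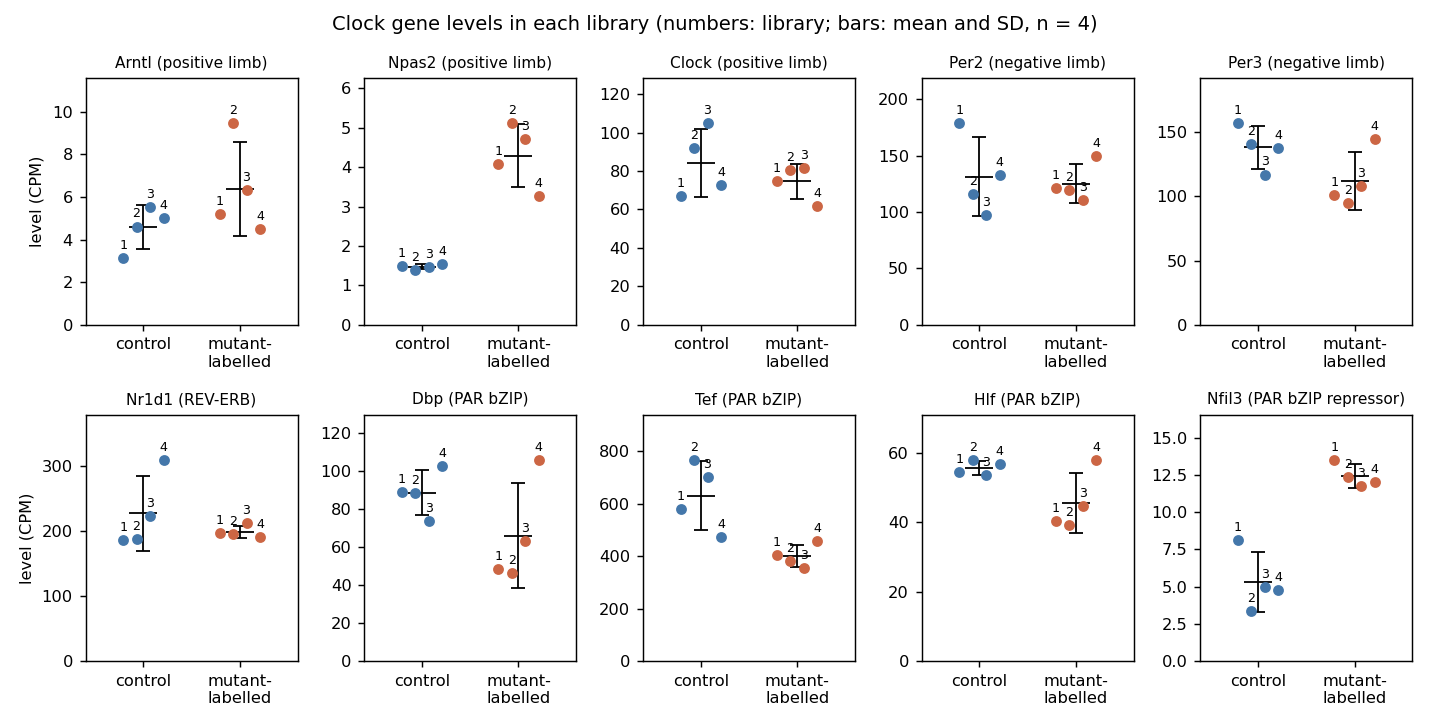
Level of each clock gene (CPM, vertical axis from 0) in the 4 control and 4 mutant-labelled libraries; numbers are library numbers, black bars the mean and SD. Npas2, Nfil3 and Tef separate the groups, and mutant-labelled library 4 stands above the other 3 of its group for Dbp, Hlf and Per3.

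Total counts ran from 15111663 to 21673654 per library, so a gene with no count could still lie at up to 3 counts, or 0.136 to 0.207 CPM, by counting error alone. Cdh1 itself, the targeted gene, ranged over 321.8 to 428.4 CPM among controls and 395.9 to 409.8 CPM among mutant-labelled libraries, and a sum over the whole gene offers no check of floxed exons. The groups are therefore named by their labels. Against the label of airway cells, Sftpc of alveolar type II cells reached 13892 to 20589 CPM and the endothelial gene Pecam1 759.6 to 1370 CPM across the libraries, beside 3755 to 14148 CPM for Scgb1a1. Of ciliated cell markers 4 of 7 were called higher and 1 lower, of alveolar type I markers 1 of 6 lower, of stromal markers 1 of 7 higher, of immediate early genes 1 of 9 lower and of alveolar type II markers 0 of 6 either way. Controls 2 and 3 lay apart from controls 1 and 4: chi-square per gene was 4.75 between controls 2 and 3, and 35.9 to 45.4 between either of them and control 1 or 4. Results that rest on these controls are given with and without them.

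Npas2, which can take the place of CLOCK beside BMAL1, changed most. It measured 1.49, 1.38, 1.47 and 1.54 CPM across the controls and 4.09, 5.13, 4.71 and 3.26 CPM across the mutant-labelled group. Every mutant-labelled library exceeded every control. The controls lay within a narrow band, which at so few counts per library is no measure of their true spread. The ratio of the groups was 2.90 (95% interval 2.17 to 3.89), a log2 fold change of 1.54 ± 0.19 (SE) with an adjusted p of 0.00124 (edgeR). The gene was counted 20 to 94 times per library (ENSMUSG00000026077.15, GRCm38 chromosome 1, 39193731 to 39363236), far fewer than its relative Clock. The call held in each of the 20 alternative fits, with log2 fold changes from 1.44 to 1.67.

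Arntl and Clock, its partner and its relative, were not called. Arntl, whose product BMAL1 is the obligate partner of CLOCK and NPAS2, was present at 3.13, 4.61, 5.53 and 5.02 CPM across the controls and at 5.18, 9.49, 6.33 and 4.48 CPM across the mutant-labelled group. The groups overlapped, with mutant-labelled library 2 highest and control 1 lowest, and the ratio of 1.39 had a 95% interval from 0.930 to 2.09 (adjusted p = 0.281, edgeR). Clock was measured at 67.1, 92.0, 105.1 and 72.5 CPM across the controls and at 74.5, 80.5, 81.6 and 61.7 CPM across the mutant-labelled group. Controls 2 and 3 were the highest or near it and mutant-labelled library 4 the lowest, and the groups overlapped. The Clock ratio was 0.887 (0.704 to 1.12, adjusted p = 0.497, edgeR). Without controls 1 and 4 the gene was called lower with a log2 fold change of -0.41, and without controls 2 and 3 its log2 fold change was 0.10 and not called. Arntl2, a paralog of Arntl, averaged 2.71 ± 0.659 CPM among controls and 4.26 ± 0.638 CPM in the mutant-labelled group (SD, n = 4 per group) and was not called (adjusted p = 0.0934, edgeR), though the groups did not overlap.

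Per unit of exon length, Npas2 came to 6.38%, 4.29%, 4.01% and 6.08% of the level of Clock in controls 1 to 4, and to 15.7%, 18.3%, 16.5% and 15.1% in mutant-labelled libraries 1 to 4. Clock thus remained the more abundant of the pair in every library. Against Arntl, mean Npas2 was 0.307 and Arntl 0.608 CPM per kb in controls, and 0.896 and 0.847 CPM per kb in mutant-labelled libraries. The Npas2 range lay below that of Arntl in controls (0.288 to 0.321 against 0.416 to 0.735 CPM per kb), and the ranges overlapped in the other group (0.681 to 1.07 against 0.596 to 1.26 CPM per kb).

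Nfil3, the repressor at D-box elements, was the second gene to rise. It reached 8.14, 3.38, 4.997 and 4.82 CPM across the controls and 13.5, 12.4, 11.8 and 12.05 CPM across the mutant-labelled group. Control 1 stood above the other controls yet below every mutant-labelled library, whose levels varied by only 6.23% (coefficient of variation) against 37.7% among controls. The ratio was 2.31 (95% interval 1.63 to 3.27), a log2 fold change of 1.21 ± 0.22 (SE) with an adjusted p of 0.0108 (edgeR; ENSMUSG00000056749.7, chromosome 13, 52967209 to 52981073). It was called with each single library left out, and lost the call when control 4 and mutant-labelled library 4 were left out together (log2 fold change 1.17, adjusted p = 0.0658). Without controls 2 and 3 the log2 fold change was 0.94, against 1.55 without controls 1 and 4, called in both fits. NFIL3 is also known from the development of natural killer cells, and the pan-leukocyte gene Ptprc was highest in control 1 as well, at 204.4 CPM against 64.1 to 101 CPM in the other controls. Among mutant-labelled libraries Ptprc ran from 93.2 to 113.6 CPM, and 0 of 8 lymphoid markers were called. The part of leukocytes in the Nfil3 level was not tested.

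Markers of several cell types moved with these 2 increases. Of general epithelial markers 3 of 5 were called higher (Epcam, Krt8 and Krt18), and their summed level ran from 821.7 to 1044 CPM in controls and 1344 to 1489 CPM in mutant-labelled libraries. All 5 goblet cell markers were higher, at 120.8 to 221.0 against 570.8 to 944.4 CPM in sum. Myeloid markers were higher in 4 of 8 (Cd68, Mrc1, Chil3 and Cd14), at 692.9 to 941.3 against 1070 to 1339 CPM, and cycling cell genes in 5 of 7, at 56.1 to 228.0 against 203.2 to 354.7 CPM. No marker in these lists was at 0 in all libraries. Their part in the levels of Npas2 and Nfil3 was not tested. In bulk RNA, a changed number of cells and a changed amount of RNA per cell cannot be told apart.

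Among the output factors Tef fell and Dbp and Hlf were not called. Tef was counted at 577.9, 767.1, 700.0 and 474.5 CPM across the controls and at 405.6, 381.8, 355.7 and 456.2 CPM across the mutant-labelled group. The groups did not overlap, but control 4 and mutant-labelled library 4 lay close together. Tef was 1.58-fold lower (95% interval 1.25 to 1.98), a log2 fold change of -0.66 ± 0.15 (SE) with an adjusted p of 0.0272 (edgeR; ENSMUSG00000022389.15, chromosome 15, 81802421 to 81826863). That call was lost without control 2 (adjusted p = 0.0655) or control 3 (0.0643) and without mutant-labelled library 1, 2 or 3 (0.0815, 0.0853 and 0.0785), with log2 fold changes of -0.55 to -0.66 in these 5 fits. Without both controls 2 and 3 the log2 fold change was -0.39, against -0.88 without controls 1 and 4.

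Club and endothelial markers moved with Tef. Club cell markers were called lower in 5 of 7, with summed levels of 26813 to 29531 CPM in controls and 10964 to 13314 CPM in mutant-labelled libraries, and endothelial markers in 4 of 7, at 3460 to 4489 against 2782 to 3113 CPM. Controls 2 and 3, the highest for Tef, were the highest controls for 3 of the 7 endothelial markers (Pecam1, Tek and Ramp2), while control 4, the lowest for Tef, was the highest for 3 others (Kdr, Cldn5 and Emcn). No marker of either list was at 0 in all libraries, and their part in the level of Tef was not tested.

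Dbp, the factor with the widest daily swing of the family in most tissues, gave 89.0, 88.6, 73.6 and 102.7 CPM across the controls and 48.5, 46.2, 63.4 and 105.9 CPM across the mutant-labelled group. Mutant-labelled libraries 1 to 3 lay below all controls and library 4 above all of them. With all libraries the ratio was 0.747 (95% interval 0.510 to 1.09, adjusted p = 0.314, edgeR). Without mutant-labelled library 4 it was called, with a log2 fold change of -0.75 (adjusted p = 0.0249). Hlf showed the same arrangement, at 54.4, 57.9, 53.7 and 56.7 CPM across the controls and 40.3, 39.3, 44.6 and 58.0 CPM across the mutant-labelled group. Its log2 fold change was -0.29 with all libraries (adjusted p = 0.165, edgeR) and -0.43 without mutant-labelled library 4 (adjusted p = 0.0175). The number of clock genes called lower rose from 1 to 3 when that library was left out, in a fit that called 1.27% of all genes lower.

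**Figure D2:**
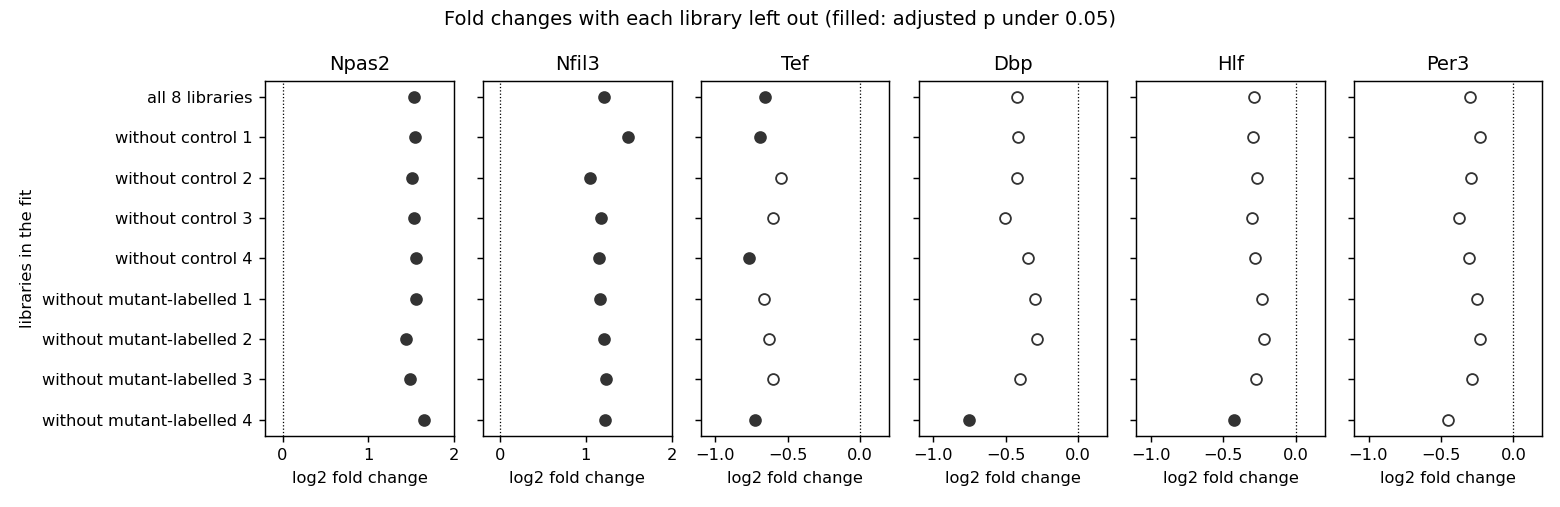
Log2 fold change (horizontal axis, mutant-labelled minus control) of 6 clock genes with all 8 libraries and with each library left out in turn; filled points have an adjusted p under 0.05. Npas2 and Nfil3 keep their calls in each fit, Tef loses its call in 5 of the 8 fits, and Dbp and Hlf gain one without mutant-labelled library 4.

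Levels of Nfil3 and of its 3 competitors were set against each other within each library. Summed per kb of exon, Dbp, Tef and Hlf reached 27.7, 81.5, 49.3 and 43.4 times the level of Nfil3 across the controls and 11.1, 11.4, 12.6 and 17.2 times across the mutant-labelled group. All ratios of the second group lay below those of the first, also in library 4, where the sum itself (102.1 CPM per kb) was close to that of control 4 (103.1 CPM per kb). Tef made up 56.8% to 73.2% of the sum. For Dbp, 539 of 2993 exon bases are shared with Sphk2, where read pairs were not counted. The full exon length was used, so its part of the sum may be understated. The ratio combines genes already described and was not tested.

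**Figure D3:**
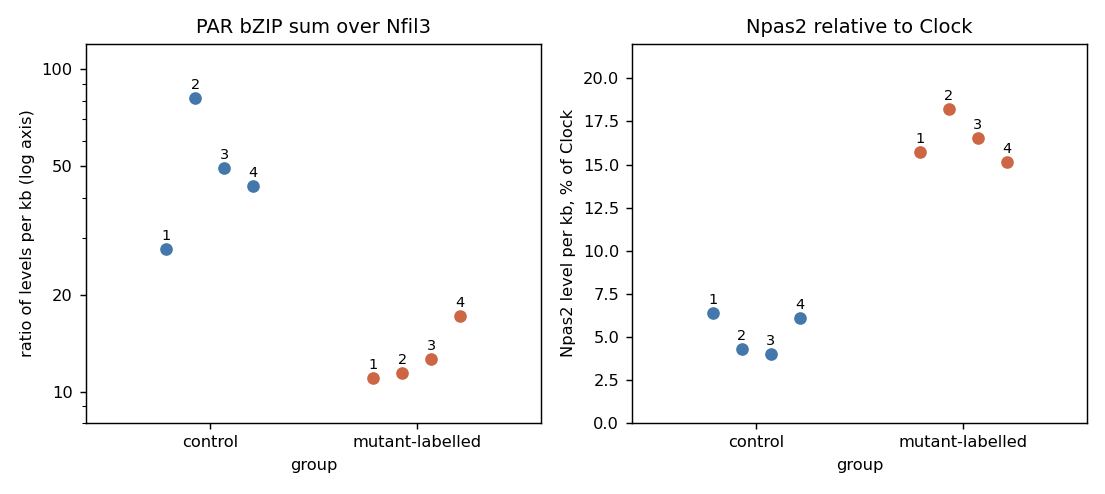
Left, summed level per kb of Dbp, Tef and Hlf divided by that of Nfil3 (log axis); right, level per kb of Npas2 as a percentage of Clock; points are libraries with their numbers. Control ratios run from 27.7 to 81.5 and mutant-labelled ratios from 11.1 to 17.2, and Npas2 lies at 4.01% to 6.38% of Clock in controls and 15.1% to 18.3% in the other group.

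The negative limb was not called. Per2, a repressor of the BMAL1 and CLOCK pair, measured 179.3, 115.7, 97.4 and 133.3 CPM across the controls and 121.2, 119.4, 110.4 and 149.8 CPM across the mutant-labelled group. Control 1 was the highest and control 3 the lowest of all, so the other group fell inside the range of controls. The Per2 ratio was 0.953 (0.724 to 1.25, adjusted p = 0.836, edgeR), and its sign turned without control 1 (log2 fold change 0.12, not called). Per3, a weaker member of the same family, stood at 157.4, 140.8, 117.1 and 137.8 CPM across the controls and 100.8, 95.1, 107.9 and 144.7 CPM across the mutant-labelled group. As for Dbp and Hlf, only library 4 of the mutant-labelled group reached the range of the controls. Per3 had a ratio of 0.811 (0.654 to 1.01, adjusted p = 0.212, edgeR), and -0.45 on the log2 scale without that library (adjusted p = 0.056). When control 1 was left out with it, Per3 was called lower (log2 fold change -0.38, adjusted p = 0.0474).

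Nr1d1, the gene of the repressor REV-ERBα, gave 186.9, 188.7, 223.5 and 310.1 CPM across the controls and 197.2, 196.2, 212.2 and 190.7 CPM across the mutant-labelled group. Control 4 alone was high, the groups overlapped, and the mutant-labelled libraries varied by 4.63% against 25.4% among controls. Its ratio was 0.876 (0.693 to 1.11, adjusted p = 0.460, edgeR), and the log2 fold change of -0.19 became -0.005 without control 4. Exons of Nr1d1 share 263 bases, 8.55% of their length, with Thra on the opposite strand, and those of Dbp share 539 of their 2993 bases with Sphk2 on the opposite strand. Counting ignored strand and left out read pairs that met 2 genes, so those in shared exon bases were counted for neither gene.

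Read together per library, the limb averages of mutant-labelled library 4 differed from those of the other 3 in its group, with no test made. Each gene's log2(CPM + 0.1) was centred on its mean over the 8 libraries and averaged by limb. Arntl, Npas2 and Clock averaged -0.55, -0.26, -0.08 and -0.28 across the controls and 0.20, 0.63, 0.40 and -0.07 across the mutant-labelled group. Dbp, Tef and Hlf averaged 0.20, 0.37, 0.20 and 0.20 across the controls and -0.40, -0.47, -0.29 and 0.20 across the mutant-labelled group. Per2 and Per3 averaged 0.43, 0.03, -0.22 and 0.12 across the controls and -0.18, -0.23, -0.19 and 0.24 across the mutant-labelled group. In every mutant-labelled library the positive average was above that of every control. In library 4 the margin was small (-0.07 against -0.08 in control 3), and of the 3 genes only Npas2 was above its mean. In mutant-labelled libraries 1 to 3 the output average was below that of every control, while the Per averages overlapped those of the controls. The positive average in these 3 libraries rested on Npas2 (0.68, 1.003 and 0.88). Clock lay there between -0.07 and 0.06 and Arntl at -0.01, 0.85 and 0.27. In library 4 Dbp, Hlf, Per2 and Per3 were above their means (0.52, 0.21, 0.25 and 0.23), as were Nfil3 (0.59) and Npas2 (0.37), whereas Tef (-0.12) stayed below every control. Nr1d1 (-0.14), Arntl (-0.22) and Clock (-0.34) were below their means there, and library 4 was the lowest of its group for each of them.

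**Figure D4:**
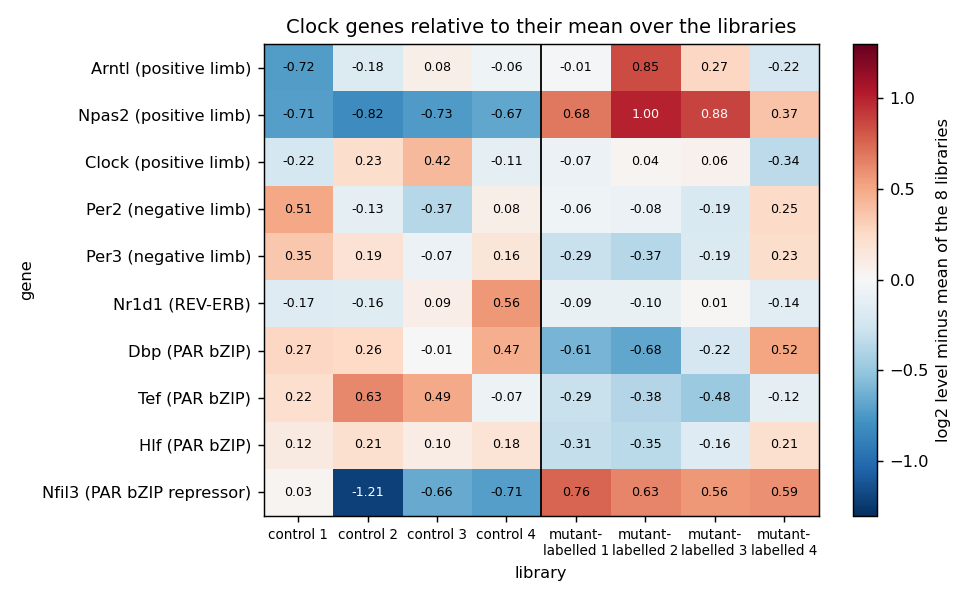
Log2 level of each clock gene in each library minus its mean over the 8 libraries (colour and printed value); the vertical line parts the groups. Npas2 is below its mean in all controls and above it in all mutant-labelled libraries, while Dbp, Hlf and Per3 are below their means in mutant-labelled libraries 1 to 3 and above them in library 4.

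The same library was often the highest over the wider clock. Of 23 measured further clock and rhythmic genes, mutant-labelled library 4 was the highest of its group for 16 (69.6%), against 28.1% of all genes tested. Among the 10 genes above it was the highest of its group for 5 and the lowest for 4. Per1, the most light- and hormone-responsive of the Per genes, gave 245.6, 245.1, 246.1 and 308.0 CPM in mutant-labelled libraries 1 to 4. Ciart, another repressor of the BMAL1 and CLOCK pair, gave 32.9, 34.1, 31.4 and 40.9 CPM there, and the deubiquitinase gene Usp2, rhythmic in many tissues, 16.4, 17.6, 14.2 and 23.6 CPM. Controls ran from 215.4 to 305.1 CPM for Per1, 33.4 to 44.6 CPM for Ciart and 17.8 to 25.0 CPM for Usp2. Mutant-labelled library 4 thus lay within the range of controls for Ciart and Usp2, and just above it for Per1. Control 4 and mutant-labelled library 4, the libraries with the most Dbp, also had the least of the glucocorticoid-induced genes Zbtb16 (51.9 and 128.9 CPM, against 232.7 to 300.3 CPM in the other 6) and Fkbp5 (50.6 and 86.0 CPM, against 120.2 to 262.7 CPM). These were the 2 of 8 listed glucocorticoid-induced genes with both libraries below the other 6, and they were singled out after their values were seen. Library 4 was the lowest of each group for 4 of the 8, while Errfi1 was highest of its group in mutant-labelled library 4 (415.9 CPM). Of the 8 glucocorticoid-induced genes listed, the metallothionein gene Mt1 alone was called between the groups, and it was higher.

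Of the 23 further clock genes, edgeR called 0 higher and 0 lower at the adjusted threshold. At an unadjusted p under 0.05 there were 2 higher (Arntl2 and Bhlhe40) and 2 lower (Nr1d2 among them), against 13.4% and 11.8% of all genes tested. DESeq2 called Arntl2 and Bhlhe40 higher and Nr1d2 lower, and limma-voom called Bhlhe40. Bhlhe40, a repressor at E-boxes that also responds to hypoxia and cytokines, measured 109.8, 70.1, 73.2 and 115.3 CPM across the controls and 161.4, 121.5, 133.8 and 157.6 CPM across the mutant-labelled group. Its groups did not overlap, and the ratio of 1.56 had a 95% interval from 1.18 to 2.05 (adjusted p = 0.0595, edgeR). Nr1d2, the gene of REV-ERBβ, measured 202.7, 240.7, 243.4 and 186.0 CPM across the controls and 163.9, 144.6, 178.7 and 192.5 CPM across the mutant-labelled group. It was 1.28-fold lower (1.07 to 1.54, adjusted p = 0.0912, edgeR), with library 4 again the highest of its group.

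For other repressors and their regulators the ratios lay near 1 or had intervals that reached it. The ratio was 1.01 for Per1 (0.819 to 1.24), 0.990 for Cry1 (0.696 to 1.41) and 0.839 for Cry2 (0.697 to 1.01). Among kinases and ubiquitin ligases that set the stability of PER and CRY proteins, 0 of 7 were called, with ratios of 1.03 for Csnk1d (0.929 to 1.13) and 1.01 for Btrc (0.895 to 1.14). The median log2 fold change of the 23 genes was -0.07. With controls 1 and 4 left out, Bhlhe40 and Rbm3 were called higher, and 6 lower (Cry2, Rora, Nr1d2, Fbxw11 and Gsk3b among them), in a fit that called 3750 higher and 3338 lower over all genes. With controls 2 and 3 left out instead, 0 of the further clock genes were called higher and 0 lower. That fit called 628 higher and 223 lower over all genes.

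**Figure D5:**
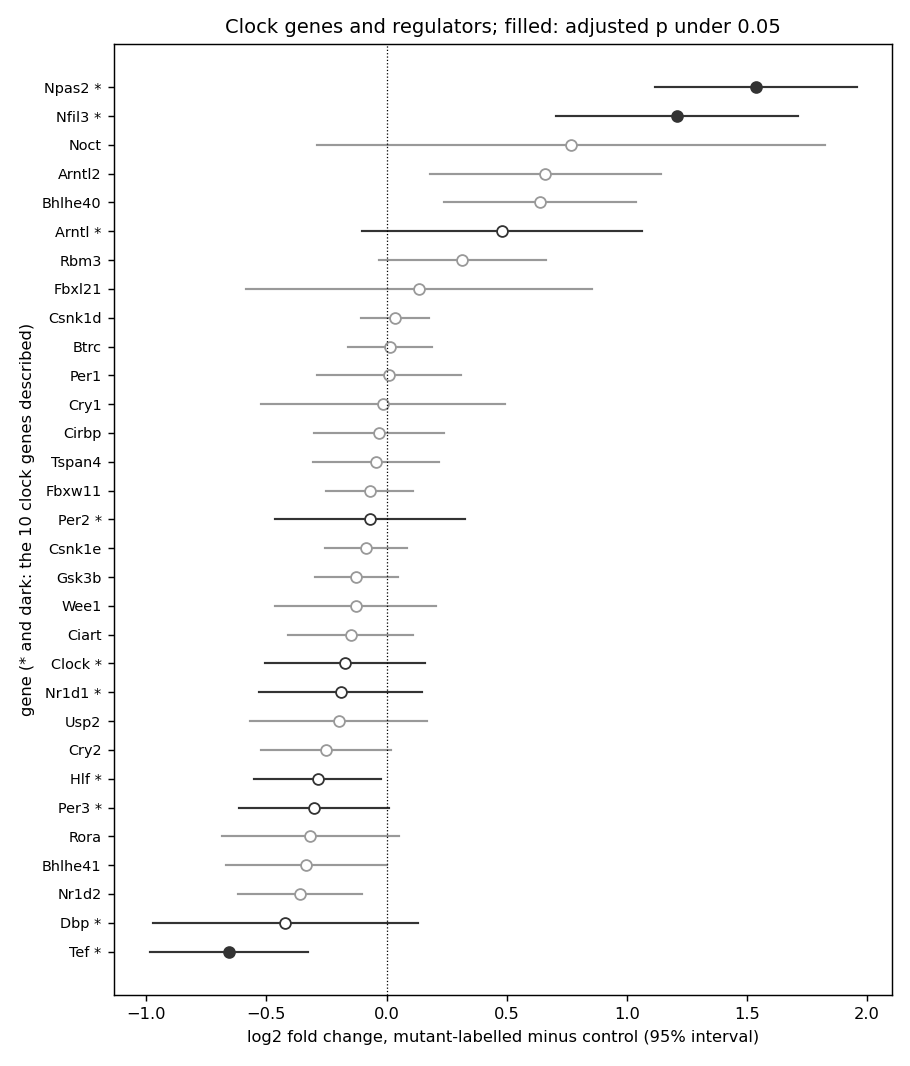
Log2 fold change (mutant-labelled minus control) with its 95% interval for the 10 clock genes (dark, starred) and 21 of the 23 further clock genes (grey), sorted by size; filled points have an adjusted p under 0.05. Npas2 and Nfil3 at the top and Tef at the bottom are the filled points.

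Per unit of exon length the 10 genes spanned a wide range. In controls the order of mean levels was Tef (80.1 CPM per kb), Nr1d1 (73.9), Dbp (29.6), Per2 (22.4), Per3 (14.4), Hlf (8.33), Clock (6.13), Nfil3 (2.63), Arntl (0.608) and Npas2 (0.307). Ranges of neighbours overlapped for Tef with Nr1d1 and for Dbp with Per2, and for no other neighbouring pair. Full exon lengths were used, so Dbp and Nr1d1, whose exons are partly shared with other genes, may be understated. In mutant-labelled libraries Nr1d1 led (64.7 CPM per kb, range 62.0 to 69.0), followed by Tef (50.8, range 45.2 to 58.0). Nfil3 (6.13, range 5.81 to 6.68) there overlapped both Hlf (5.88 to 8.68) and Clock (4.50 to 5.94). Nr1d1 stood above Arntl in every library, in controls by 60.7 to 100.8 against 0.416 to 0.735 CPM per kb.

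Outside the clock lists, the nearest profiles to that of Arntl over the 8 libraries were those of Gpr39, Pde10a, Znrd1as, Nnat and Ptn, with root mean square distances of 0.175 to 0.246 on the centred log2 scale, against a median of 0.457 over the 13182 genes considered. Nearest to Dbp were Nr3c2, Meis2, Atp6v1c2, Zscan18 and Tmem121b, at 0.158 to 0.207 against a median of 0.467. Nr3c2, the gene of the mineralocorticoid receptor, gave 15.1, 14.3, 12.9 and 20.2 CPM across the controls and 8.63, 9.81, 9.52 and 16.5 CPM across the mutant-labelled group. Like Dbp, it was highest in library 4 of each group. This likeness, and distances below the median, follow from choosing the nearest profiles and are no separate result.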

How the data were processed

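RNA was sequenced from 8 libraries, 4 per group, and groups were taken from the sample titles. Per the file headers, the authors deposited raw counts of read pairs per gene, made with featureCounts 1.6.2 on STAR alignments against GENCODE M25 (GRCm38), without strand and without reads shared between genes or places. The deposited table also gives exon lengths (another unit, bases), used for levels per kb. Symbols from GENCODE M21 matched 99.53% of identifiers. Genes were filtered with filterByExpr (minimum count 10, total 15), scaled by TMM and compared with edgeR 4.0.16 (quasi-likelihood, robust, group as the only term, R 4.3.3), with Benjamini-Hochberg adjustment over all genes and a threshold of 0.05. SEs and 95% intervals were derived from the F statistic. Alternatives used DESeq2 1.42.0, limma 3.58.1, other scaling and filters, a GC correction, a replicate block and left-out libraries.

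Some of the further clock genes enter the counts but are not reported here by name. The members and lists were chosen with earlier results of these data known. Named genes were the 10 members, further clock genes called in any fit shown or needed to explain a count, markers that were called or abundant, and the 5 genes, with a mean log2 CPM of at least 1, nearest in profile to Arntl and to Dbp. No library pair agreed within sampling noise (chi-square per gene 4.75 to 45.4). The sample descriptions carry numbers whose meaning is not stated: those of control 1 and mutant-labelled library 4 adjoin, and those of mutant-labelled libraries 1 to 3 lie close together. No source says whether each library is another animal, and the p-values reflect library-to-library spread alone.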

Additional observations from a re-analysis of the deposited data

Results flagged for a closer look

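Among 66 groups of 4 libraries examined over the 10 clock genes and 23 further clock genes, 4 held a library far from the other 3 by Dixon's criterion, where chance gives about 1 in 20. Per1 stood at 308.0 CPM in mutant-labelled library 4, against 245.1 to 246.1 CPM in the other 3. Noct, a rhythmic deadenylase-related gene, stood at 20.1 CPM in control 1, against 5.76 to 7.58 CPM. Cirbp, a cold-inducible RNA-binding protein gene, stood at 66.9 CPM in control 4, against 49.7 to 51.2 CPM. Gsk3b stood at 104.0 CPM in mutant-labelled library 3, against 92.7 to 93.8 CPM. None of the 10 clock genes themselves was marked in this way.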

How the results depend on the processing

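The 2 clock genes called higher remained 2 in all fits except the one without control 4 and mutant-labelled library 4 (1), a pair chosen after seeing the data. The number called lower, 1 with all libraries, ranged from 0 to 3 with 1 library left out, and was 0 when controls 2 and 3 were left out, 2 when controls 1 and 4 were (Clock and Tef), 3 when control 4 and mutant-labelled library 4 were (Dbp, Hlf and Tef), and 4 when control 1 and mutant-labelled library 4 were (Dbp, Hlf, Per3 and Tef). Of all genes, those 4 fits called 1.26%, 19.2%, 1.37% and 3.69% lower, in that order. With the replicate block it was 0, and Tef had an adjusted p of 0.0663 (log2 fold change -0.64). Same-numbered libraries deviated from their group means with correlations of 0.007, 0.129, -0.123 and 0.134, and 3 of the 8 libraries correlated best with their own number. The labels give only a shared number, and correlations this weak cannot settle whether same-numbered libraries are pairs. Of the further clock genes, with 0 called each way, the number higher ranged from 0 to 2 and the number lower from 0 to 1 with 1 library left out. It was 2 higher and 1 lower with DESeq2, 1 higher with limma-voom, 1 higher with the replicate block, 1 lower without a filter, and 2 higher and 6 lower without controls 1 and 4. Signs turned, without a call, for Per2 when control 1 (0.12), controls 1 and 4 (0.23) or control 1 with mutant-labelled library 4 (0.021) were left out, for Clock when controls 2 and 3 were (0.10) and for Nr1d1 when control 4 with mutant-labelled library 4 were (0.016). With 1 library left out Per2 ran from -0.19 to 0.12. The cause was not tested. Over all genes, 924 higher and 401 lower became 1336 and 939 with DESeq2, 515 to 1517 and 146 to 1117 with 1 library left out, 3750 and 3338 without controls 1 and 4, and 628 and 223 without controls 2 and 3. Npas2, at 20 to 94 counts per library, Nfil3 at 49 to 266 and Arntl at 65 to 174 are the genes most limited by depth.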
